A study of Mus musculus with 9 samples.

Results

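The genes described here are the receptors for the constant region of immunoglobulin G (Fc gamma receptors) of the mouse, the signalling chain they share, and the enzymes that act directly downstream of them. The set was chosen by name and holds 8 of the 34866 genes in the tables: the receptors Fcgr1, Fcgr2b, Fcgr3 and Fcgr4, the Fc receptor gamma chain Fcer1g, the tyrosine kinases Lyn and Syk, and the inositol phosphatase Inpp5d, also called SHIP1. All 8 were listed and all 8 passed the minimum of 1 mean TPM used for testing. Their RNA was measured in cultured mouse primary macrophages in 3 groups of 3 biological replicates. Standard oxygen lasted 7 days. Acute hypoxia was 3 hours of 1% oxygen after culture in standard oxygen, and chronic hypoxia was 7 days of 1% oxygen. The medium of all groups was alpha-MEM with 10% fetal bovine serum and 10% L929-conditioned medium, which carries the macrophage growth factor M-CSF. The labels name no strain, genotype, age or tissue of origin, and no antibody or immune complex among the treatments.

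Values are TPM, a length-corrected share of a library's transcripts, so levels can be compared between genes. As a share of a fixed total it moves when other abundant genes move, and the sequencing depth is unknown. A bulk value also cannot tell apart fewer cells with an RNA from less of it per cell. The descriptions give each library 1 of 3 codes, called A, B and C here, each present once in every group, and what they stand for is not stated. Code A was on replicate 1 of each group. Code B was on replicate 2 of acute and chronic hypoxia and replicate 3 of standard oxygen, and code C on the remaining libraries. Values of single libraries are always given in the order A, B, C. The 3 libraries of code C stood apart from the other 6: Fcgr4 was at 231 to 374 TPM against 125 to 159.6, and Spi1, which encodes the macrophage transcription factor PU.1, was at 246 to 286 TPM against 191 to 235. Calls of the 8 genes that differed without these libraries are stated, and for some genes the size. All 8 macrophage markers examined (among them Csf1r, Cd68 and Lyz2) were present in every group, and summed to between 56864 and 75368 TPM over the 9 libraries, most of it from Lyz2 (52793 to 70403). Other markers moved with the chronic group. Csf1r, the M-CSF receptor, was at 439 to 513 TPM in standard oxygen, 457 to 489.6 in acute and 579 to 778 in chronic hypoxia. Cd14, a co-receptor for lipopolysaccharide, was at 908 to 1379, 1241 to 1504 and 692 to 794 TPM in the same order. Neither passed the test between chronic hypoxia and standard oxygen (limma, adjusted p = 0.0933 for Csf1r and 0.198 for Cd14). Without the libraries of code C, Csf1r passed it (log2 difference 0.76; limma, adjusted p = 0.00382) and Cd14 did not (0.0678). Against acute hypoxia Cd14 passed (-0.88; limma, adjusted p = 0.0486). Csf1r passed there with the code as a replicate block (0.56; limma, adjusted p = 0.0385) but not without it (0.103). The part of Csf1r and Cd14 in the receptor values was not tested. The lists for dendritic cells, mast cells, B cells, T and NK cells and fibroblasts each summed to a few TPM. A neutrophil list summed to 906 to 1633 TPM in standard oxygen, 950.3 to 1944 in acute and 311 to 667 in chronic hypoxia. Most of it came from S100a8 (895 to 1593, 937 to 1906 and 258 to 582 TPM in the same order). Mmp8, the next, went the other way in chronic hypoxia (6.98 to 37.0, 8.80 to 34.2 and 50.3 to 81.8 TPM). Ngp was lower in chronic hypoxia (0.368 to 3.79, 0.221 to 3.81 and 0 to 0.208 TPM). Camp was at 0.133 to 1.65, 0.143 to 1.44 and 1.55 to 2.03 TPM, and Ltf reached at most 1.49 TPM, in acute hypoxia. The other genes of the list, Ly6g, Elane, Mpo, S100a9 and Cxcr2, stayed under 1 TPM in each library. The part of S100a8-bearing cells in the receptor values was not tested. Egln3, an oxygen sensor induced by hypoxia, followed the labels, with 9.08 to 30.7 TPM in standard oxygen, 110 to 231 in acute and 514 to 562 in chronic hypoxia. The order of the acute and chronic groups differed between hypoxia-induced genes. Hilpda was highest in acute hypoxia, with 79.9 to 85.4, 368 to 517 and 123 to 136 TPM in the same order of groups.

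Fc gamma receptors let macrophages bind antibody-coated particles and immune complexes. Fcgr1, Fcgr3 and Fcgr4 are activating receptors. They have no signalling motif of their own and depend on Fcer1g, whose cytoplasmic tail carries an immunoreceptor tyrosine-based activation motif. When receptors are clustered, Src family kinases such as Lyn phosphorylate that motif and Syk docks on it, which starts phagocytosis, the oxidative burst and cytokine release. Fcgr2b is the inhibitory member of the family. It carries an immunoreceptor tyrosine-based inhibition motif, is itself phosphorylated by Lyn, and recruits Inpp5d, which removes a phosphate from the lipid made by phosphoinositide 3-kinase. The balance between Fcgr2b and the activating receptors sets how strongly a macrophage answers immune complexes.

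Promoter sequence is shown for the 4 receptor genes, because 3 of them are neighbours on mouse chromosome 1 and only Fcgr2b and Fcgr3 of these passed the test in chronic hypoxia. Each is the longest stretch outside annotated exons within the 250 bases before the transcription start in RefSeq (GRCm38.p6), written 5′ to 3′ on the gene's strand. Capitals mark a match to ACGTG or GCGTG, the core letters of the hypoxia response element bound by HIF, or to GAGGAAGT on either strand, letters bound by the macrophage factor PU.1. Fcgr2b is from chr1:170976128-170976190 (minus strand), Fcgr3 from chr1:171059404-171059626 (minus strand), Fcgr4 from chr1:171018676-171018919 (plus strand) and Fcgr1 from chr3:96293970-96294219 (minus strand). The Fcgr2b and Fcgr3 stretches are intronic in longer GENCODE M21 transcripts of these genes, and the others lie just before their genes.
Fcgr2b: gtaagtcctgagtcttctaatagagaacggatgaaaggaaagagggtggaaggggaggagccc
Fcgr3: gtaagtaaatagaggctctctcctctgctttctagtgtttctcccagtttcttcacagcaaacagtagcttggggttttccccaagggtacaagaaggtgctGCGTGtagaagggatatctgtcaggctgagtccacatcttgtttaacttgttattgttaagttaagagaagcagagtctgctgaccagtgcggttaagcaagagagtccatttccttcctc
Fcgr4: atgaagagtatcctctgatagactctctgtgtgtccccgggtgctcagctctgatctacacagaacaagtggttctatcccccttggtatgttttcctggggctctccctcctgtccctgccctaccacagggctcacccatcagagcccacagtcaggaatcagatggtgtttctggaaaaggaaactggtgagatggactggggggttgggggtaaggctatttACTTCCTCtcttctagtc
Fcgr1: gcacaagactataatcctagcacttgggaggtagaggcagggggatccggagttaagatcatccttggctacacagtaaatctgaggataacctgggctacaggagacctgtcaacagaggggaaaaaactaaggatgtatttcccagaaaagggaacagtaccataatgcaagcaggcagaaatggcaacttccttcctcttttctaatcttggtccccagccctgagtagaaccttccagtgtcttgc
In the full windows from 250 bases before to 50 bases after the start, ACGTG or GCGTG occurred on either strand in 43.8% of 32851 mouse promoters, and GAGGAAGT in 3.20%. Promoters were in the table for 7 of the 8 genes (not for Lyn). The HIF core letters were found for Fcgr3 (position -121, the base before the start being -1), for Fcer1g (-12) and for the second of 2 Syk promoters (-189). GAGGAAGT was found for Fcgr4 (-24) and for Inpp5d (-20). Neither motif was in the Fcgr2b or Fcgr1 window. These matches describe the letters in these windows only.

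In chronic hypoxia the RNA of 2 receptors rose, the inhibitory Fcgr2b and the activating Fcgr3, while the other activating receptors, the shared gamma chain, Lyn and Inpp5d did not pass the test against standard oxygen. The mean of Fcgr2b was 5.25 times as high as in standard oxygen and that of Fcgr3 was 2.71 times as high. With limma and Benjamini-Hochberg adjustment over all genes tested, 2 of the 8 genes were called in chronic hypoxia against standard oxygen, both higher, where 2.69% of all genes tested were called. In chronic against acute hypoxia 1 of 8 was called (Fcgr3), against 0.695% of all genes. In acute hypoxia against standard oxygen 0 of 8 were called, against 0.0273% of all genes, and 0 of 8 had an unadjusted p under 0.05. The sample codes paired the libraries across groups, and with the code as a replicate block the counts were 3 of 8, 3 of 8 and 0 of 8, where 18.4%, 15.5% and 0.71% of all genes were called. Without the 3 libraries of code C they were 3 of 8, 4 of 8 and 1 of 8, where 21.1%, 16.3% and 2.95% of all genes were called. The median log2 difference of the 8 genes was -0.08 in chronic hypoxia against standard oxygen, where the median of all genes tested was 0.16, and -0.19 in chronic against acute hypoxia, where that of all genes was 0.14. Median-of-ratios rescaling brought the medians of all genes to 0.0006 and 0.0008. It turned the calls over all genes from 232 higher and 66 lower into 111 and 117 against standard oxygen, and from 61 and 16 into 34 and 47 against acute hypoxia. Fcgr2b (log2 difference 2.13; limma, adjusted p = 0.0445) and Fcgr3 (1.24; 0.0460) were still called against standard oxygen after that rescaling.

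**Figure D1:**
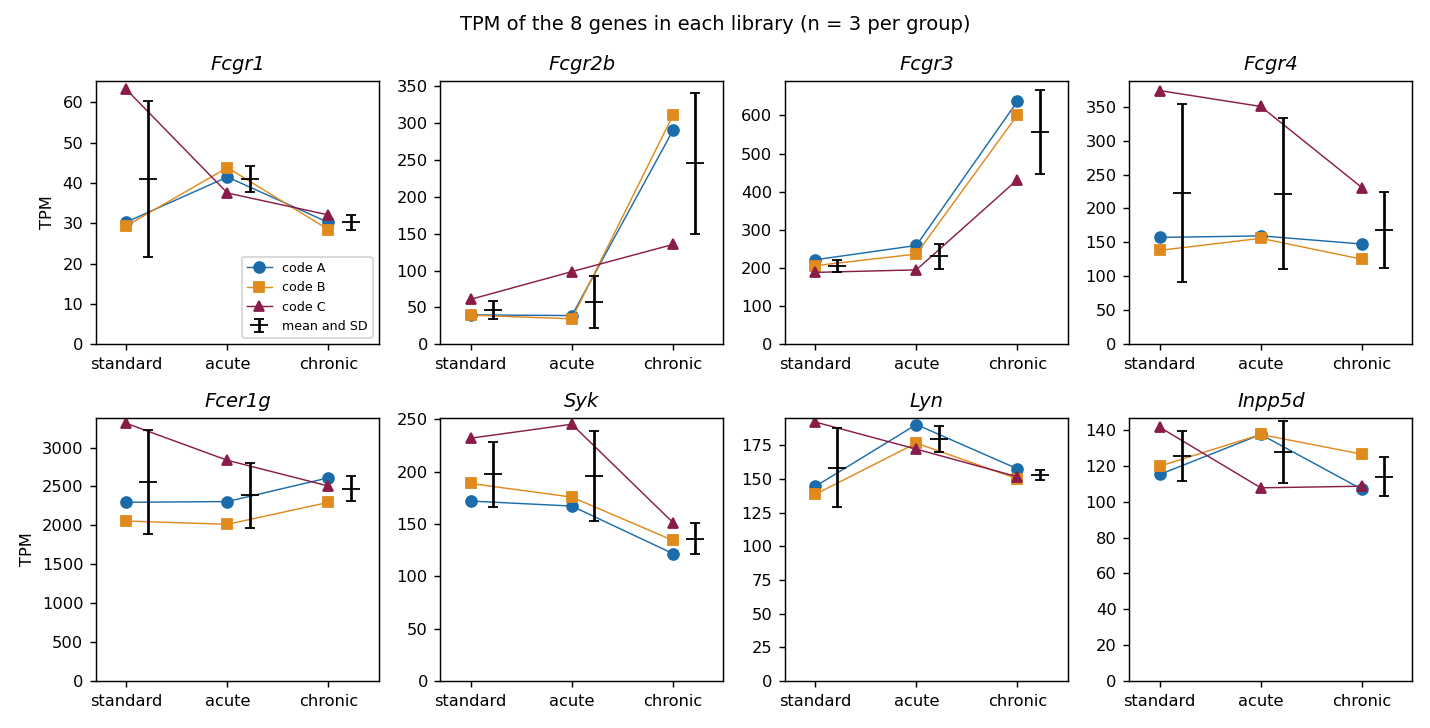
TPM of each of the 8 genes (vertical axes from 0) in the 3 standard oxygen, 3 acute hypoxia and 3 chronic hypoxia libraries. Each point is a library, lines join libraries of 1 code, and black bars are the group mean with its SD (n = 3). The chronic hypoxia points of Fcgr2b and Fcgr3 lie above all points of the other groups, and the points of code C are the highest of each group for Fcgr4.

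Fcgr2b, the inhibitory receptor, had the largest difference. It was at 39.7, 39.5 and 60.9 TPM in standard oxygen. In acute hypoxia it was at 38.9, 34.4 and 98.5 TPM. In chronic hypoxia it was at 290.0, 311 and 135 TPM. Every chronic hypoxia library was above every other library, and the chronic library of code C was the lowest of its group. The log2 difference between chronic hypoxia and standard oxygen was 2.31 ± 0.347 (SE, n = 3 per group; limma, adjusted p = 0.0328). Within codes it was 2.84 for A, 2.94 for B and 1.14 for C. Leaving out the 3 libraries of code C gave 2.89 (limma, adjusted p = 0.000306). The call was lost when standard replicate 1 (limma, adjusted p = 0.165), standard replicate 3 (0.150), chronic replicate 1 (0.119) or chronic replicate 2 (0.146) was left out. It was also lost without the filter on low values (limma, adjusted p = 0.0767). The log2 difference stayed between 2.09 and 2.89 over all alternatives.

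Against acute hypoxia the Fcgr2b difference was similar in size but did not pass the test. The log2 difference was 2.15 ± 0.479 (limma, adjusted p = 0.0888), and with the code as a replicate block the adjusted p was 0.0514. Within codes it was 2.87 for A, 3.14 for B and 0.45 for C, the acute library of code C being the highest of its group. Without the libraries of code C the log2 difference was 3.00 (limma, adjusted p = 0.000766). Between acute hypoxia and standard oxygen the groups overlapped, with a log2 difference of 0.15. Leaving out the code C libraries turned that value to -0.11, neither passing the test.

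Fcgr3, the low-affinity activating receptor, was higher in chronic hypoxia than in both other groups. It was at 221, 206 and 188 TPM in standard oxygen. It was at 259, 236 and 195 TPM in acute hypoxia and at 637, 601 and 432 TPM in chronic hypoxia. The chronic libraries did not overlap with either other group, and the differences were close to each other within codes. Between chronic hypoxia and standard oxygen the log2 difference was 1.42 ± 0.167 (limma, adjusted p = 0.0186), and 1.52, 1.54 and 1.19 within codes A, B and C. Between chronic and acute hypoxia it was 1.26 ± 0.185 (limma, adjusted p = 0.0493), and 1.30, 1.34 and 1.14 within the same codes. The call against acute hypoxia lay at the threshold, and it held without the 3 libraries of code C. It was lost after median-of-ratios rescaling (limma, adjusted p = 0.0865), quantile normalization (0.0561), a pseudocount of 5 (0.0513), no filter on low values (0.101) or no intensity trend (0.0602), and was firmer with the code as a replicate block (0.00582). Among single libraries left out, the call remained only without chronic replicate 3 (limma, adjusted p = 0.0238). It was lost without acute replicate 1 (0.195), 2 (0.238) or 3 (0.0643) and without chronic replicate 1 (0.164) or 2 (0.236). The call against standard oxygen was lost without standard replicate 1 (limma, adjusted p = 0.0975) or 3 (0.118) and without chronic replicate 1 (0.0851) or 2 (0.123). Between acute hypoxia and standard oxygen the log2 difference was 0.16, not called.

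Fcgr4, an activating receptor of intermediate affinity, lies between Fcgr2b and Fcgr3 on the chromosome and did not pass the test in any comparison. It was at 157, 138 and 374 TPM in standard oxygen. It was at 159.6, 156 and 350.3 TPM in acute hypoxia and at 148, 125 and 231 TPM in chronic hypoxia. The spread between codes was larger than any difference between groups. The log2 difference between chronic hypoxia and standard oxygen was -0.31 ± 0.412 (limma, adjusted p = 0.696; 95% interval -1.30 to 0.68). Within codes it was -0.09 for A, -0.14 for B and -0.69 for C.

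Fcgr1, the high-affinity activating receptor, had the lowest mean of the 8 genes in every group. It was at 30.3, 29.3 and 63.2 TPM in standard oxygen. It was at 41.5, 43.8 and 37.5 TPM in acute hypoxia and at 30.2, 28.4 and 32.1 TPM in chronic hypoxia. The standard oxygen library of code C was the highest of all 9, and the direction of change differed between codes. From standard oxygen to acute hypoxia the log2 difference was 0.44 and 0.56 within codes A and B and -0.74 within code C, 0.09 in all. Without the libraries of code C it was 0.50 and passed the test (limma, adjusted p = 0.0454, 2 libraries per group). Between chronic and acute hypoxia the groups did not overlap and the log2 difference was -0.42 ± 0.104 (limma, adjusted p = 0.105). With the code as a replicate block that difference was called (limma, adjusted p = 0.0476), as it was without the libraries of code C (log2 -0.53, 0.0198). Between chronic hypoxia and standard oxygen the log2 difference was -0.34 (limma, adjusted p = 0.535; 95% interval -1.03 to 0.36).

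Fcer1g, the chain through which the activating receptors signal, was the most abundant of the 8 in every library and ranked between 27 and 49 among all genes. It was at 2296, 2055 and 3311 TPM in standard oxygen. It was at 2305, 2013 and 2836 TPM in acute hypoxia and at 2611, 2295 and 2505 TPM in chronic hypoxia. The groups overlapped throughout. The log2 difference between chronic hypoxia and standard oxygen was -0.02 ± 0.195 (limma, adjusted p = 0.966; 95% interval -0.49 to 0.45). Its sign differed between codes, with 0.19 and 0.16 within codes A and B and -0.40 within C. Between chronic and acute hypoxia it was 0.06 (limma, adjusted p = 0.858) and -0.09 after median-of-ratios rescaling.

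**Figure D2:**
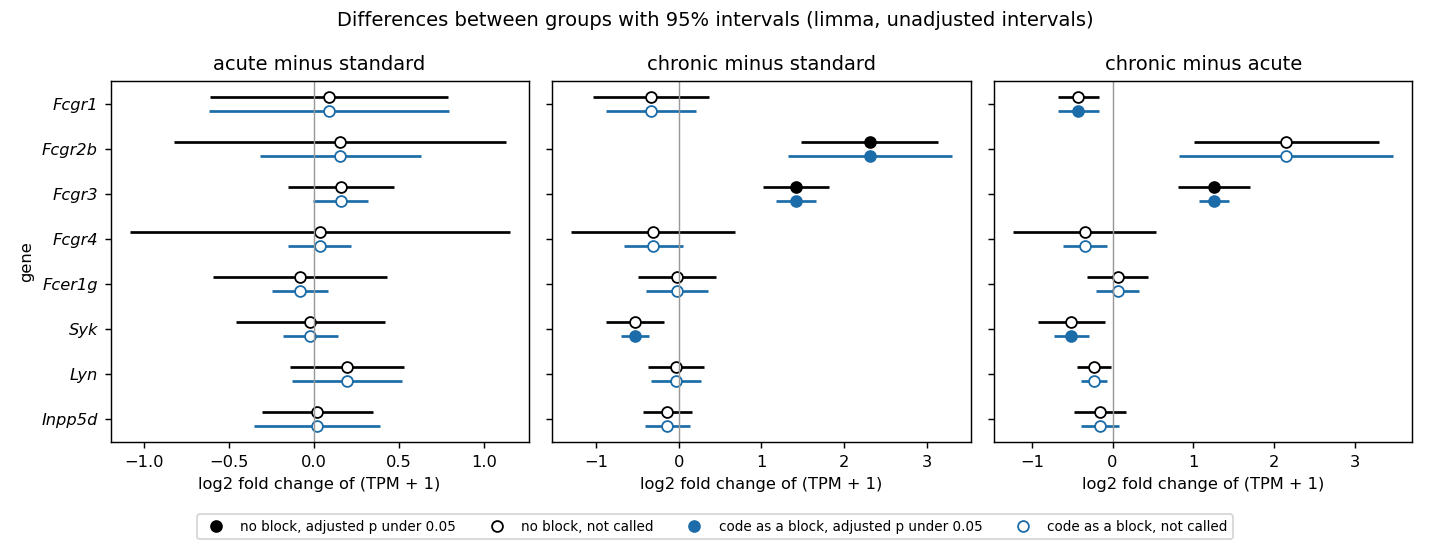
Log2 differences of the 8 genes on the log2(TPM + 1) scale in each of the 3 comparisons, with 95% intervals from limma without a block (black) and with the code as a block (blue). Filled points had an adjusted p under 0.05. Fcgr2b and Fcgr3 lie at 2.31 and 1.42 in chronic hypoxia against standard oxygen, and the interval of Fcer1g without a block, from -0.49 to 0.45, includes 0.

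Syk, the kinase that docks on the phosphorylated gamma chain, was lower in chronic hypoxia in each code, with a call that depended on the block. It was at 172, 189 and 232 TPM in standard oxygen. It was at 167, 176 and 245 TPM in acute hypoxia and at 122, 134 and 151 TPM in chronic hypoxia. The highest chronic library was below the lowest library of both other groups. Its mean in chronic hypoxia was 0.687 times that in standard oxygen. The log2 difference of -0.53 ± 0.146 did not pass the test without a block (limma, adjusted p = 0.107) and passed it with the code as a replicate block (SE 0.0648, adjusted p = 0.0148). It also passed after median-of-ratios rescaling (log2 -0.71; limma, adjusted p = 0.0330) and without the libraries of code C (log2 -0.49; 0.0220). Within codes it was -0.49, -0.49 and -0.61. Against acute hypoxia the log2 difference was -0.51 ± 0.172 (limma, adjusted p = 0.176), and the adjusted p was 0.0229 with the code as a replicate block. Without the libraries of code C that difference was also called. Between acute hypoxia and standard oxygen it was -0.02.

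Lyn, the Src family kinase that phosphorylates both activating and inhibitory motifs, was at 144, 139 and 192 TPM in standard oxygen. It was at 190.5, 177 and 172 TPM in acute hypoxia and at 158, 150.2 and 152 TPM in chronic hypoxia. The acute libraries were all above the chronic ones and overlapped with standard oxygen. Between chronic and acute hypoxia the log2 difference was -0.23 ± 0.0892 (limma, adjusted p = 0.217), and with the code as a replicate block the adjusted p was 0.0705. It was called in 1 of 19 alternatives, the code block with median-of-ratios rescaling (log2 -0.38; limma, adjusted p = 0.0294). Between chronic hypoxia and standard oxygen it was -0.03 (limma, adjusted p = 0.910; 95% interval -0.37 to 0.30). From standard oxygen to acute hypoxia it was 0.40 and 0.35 within codes A and B and -0.16 within code C. That difference was not called with or without code C.

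Inpp5d, the phosphatase recruited by Fcgr2b, did not pass the test in any comparison. It was at 115, 120 and 142 TPM in standard oxygen. It was at 138, 138 and 108 TPM in acute hypoxia and at 107, 127 and 109 TPM in chronic hypoxia. All 3 groups overlapped. Between chronic hypoxia and standard oxygen the log2 difference was -0.14 ± 0.122 (limma, adjusted p = 0.548; 95% interval -0.43 to 0.16). From standard oxygen to acute hypoxia it was 0.25 and 0.20 within codes A and B and -0.39 within code C.

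In all, 3 of the 8 genes did not overlap between chronic hypoxia and standard oxygen (Fcgr2b and Fcgr3 higher, Syk lower), where 29.6% of all genes tested did not. Between chronic and acute hypoxia 5 of the 8 did not overlap (Fcgr2b and Fcgr3 higher, Fcgr1, Syk and Lyn lower), where the share of all genes was 27.8%. Between acute hypoxia and standard oxygen all 8 genes overlapped, where 12.5% of all genes did not.

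As a description of the receptor RNA as a whole, the 4 Fc gamma receptors summed to 516 ± 148 (SD) TPM in standard oxygen, to 550.3 ± 114 in acute and to 1000.1 ± 149 in chronic hypoxia, 3 libraries each. Fcgr2b made up 9.10% ± 0.397 of that sum in standard oxygen, 9.86% ± 3.99 in acute and 23.9% ± 6.73 in chronic hypoxia. The lowest chronic library, of code C, was at 16.3% and the highest library of the other groups, acute hypoxia of the same code, at 14.5%. The mean share of Fcgr3 was 42.2% in standard oxygen, 43.6% in acute and 55.4% in chronic hypoxia. That of Fcgr4 was 41.0%, 38.9% and 17.6%, and that of Fcgr1 was 7.69%, 7.71% and 3.09%, in the same order. The ratio of Fcgr2b to Fcgr3 was 0.232 ± 0.0799 in standard oxygen, 0.267 ± 0.206 in acute and 0.428 ± 0.104 in chronic hypoxia, and the acute library of code C (0.505) lay within the chronic range. Without that library the acute mean was 0.148.

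Relative to the 3 activating Fc gamma receptors, Fcer1g was lowest in chronic hypoxia. It was 5.47 ± 0.160 times the sum of Fcgr1, Fcgr3 and Fcgr4 in standard oxygen, 4.83 ± 0.201 times in acute and 3.28 ± 0.292 times in chronic hypoxia (SD over 3 libraries). Other receptors that pair with Fcer1g were not in that sum. Among them Clec4d, a C-type lectin, had means of 2091, 2147 and 1203 TPM in the same order, so the ratio does not describe all receptors that use Fcer1g. Inpp5d was 0.638 ± 0.0301 times Syk in standard oxygen, 0.682 ± 0.211 times in acute and 0.846 ± 0.116 times in chronic hypoxia. The acute libraries of codes A and B (0.823 and 0.783) lay within the chronic range of 0.718 to 0.942, and that of code C was at 0.439. These ratios were not tested.

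**Figure D3:**
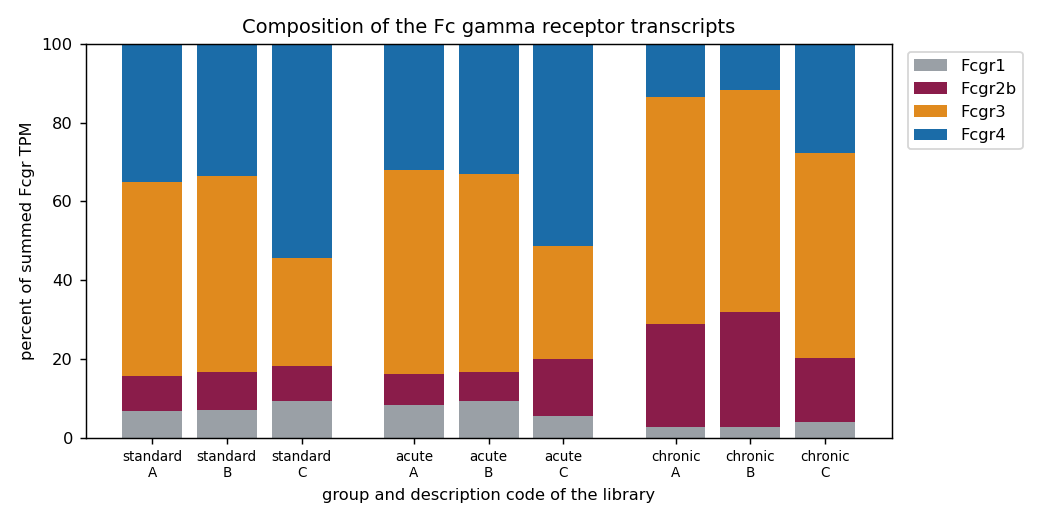
Share of each Fc gamma receptor in the summed TPM of Fcgr1, Fcgr2b, Fcgr3 and Fcgr4, as 1 stacked bar per library, grouped by oxygen condition and labelled by code. Fcgr2b takes 8.85% to 9.55% of the sum in standard oxygen and 16.3% to 29.2% in chronic hypoxia.

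By level, Fcer1g came first in every group without overlap with the next gene. In standard oxygen Fcgr4, Fcgr3, Syk, Lyn and Inpp5d followed, each overlapping with its neighbour in the order, and then Fcgr2b and Fcgr1, which overlapped with each other and lay below Inpp5d without overlap. In acute hypoxia the order was Fcgr3, Fcgr4, Syk, Lyn, Inpp5d, Fcgr2b and Fcgr1. Lyn and Inpp5d, and Inpp5d and Fcgr2b, did not overlap there, while the other neighbours did. In chronic hypoxia the order was Fcgr3, Fcgr2b, Fcgr4, Lyn, Syk, Inpp5d and Fcgr1. Fcgr3 and Fcgr1 did not overlap with their neighbours, and the 5 genes between them did. Among all genes, Fcgr3 ranked between 230 and 634 over the 9 libraries, Fcgr2b between 447 and 3104, and Fcgr1 between 1895 and 3952.

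In GENCODE M21 on GRCm38, Fcgr2b (chr1:170958617-170976547, minus strand), Fcgr4 (chr1:171018920-171029761, plus strand), Fcgr3 (chr1:171051174-171064935, minus strand) and Fcer1g (chr1:171229572-171234365, minus strand) lie within 275.7 kb, a stretch with 11 protein-coding genes. Of these, 9 were tested in chronic hypoxia against standard oxygen and 2 were called, Fcgr2b and Fcgr3. Sdhc, a subunit of mitochondrial complex II in the same stretch, was at 188, 174 and 166 TPM on average in the standard, acute and chronic groups, and its log2 difference between chronic hypoxia and standard oxygen was -0.18 (limma, adjusted p = 0.705). Fcgr2b and Fcgr3 share sequence: 94 of the 75-base stretches of their transcripts are identical, 2.71% of those of Fcgr2b and 7.38% of those of Fcgr3. In all, 9.14% of the Fcgr2b stretches occur in another listed gene, so some reads could have been counted for either. Exons of Fcgr2b also overlap the antisense gene Gm38204, and exons of Lyn the noncoding Gm26857 on the other strand, neither of them listed, and whether the counting used strand is not given in the sources used here. For Lyn 12.1% of stretches occur in the pseudogene Gm11787, which did not exceed 0.0953 TPM. Inpp5d lies on chromosome 1 outside this stretch, Fcgr1 on chromosome 3, Lyn on chromosome 4 and Syk on chromosome 13.

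Over the 9 libraries, Fcgr2b and Fcgr3 varied together (Pearson's r = 0.862 on log2(TPM + 1)), Fcgr3 and Syk in opposite directions (r = -0.901), Fcgr1 with Lyn (r = 0.879) and Fcgr4 with Fcer1g (r = 0.835). These libraries share group and code, so the values are descriptions. Among 8861 genes with a mean of at least 5 TPM, the gene whose pattern was most like that of Fcgr2b was Itgb2 (r = 0.984), the beta chain of leukocyte integrins. For Fcgr3 it was Msl3 (r = 0.991), followed by Tmem123 and Pira2, and for Syk it was Ppfia3 (r = 0.986). For Fcer1g it was Il2rg (r = 0.990), the common cytokine receptor gamma chain, and for Fcgr4 it was Stfa2 (r = 0.983). The closest genes of Fcgr1 (Ube2a, r = 0.955), Lyn (Tmem33, r = 0.919) and Inpp5d (Tmed5, r = 0.882) were less alike.

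Of a list of 19 further kinases (Src and Tec family, phosphoinositide 3-kinase, protein kinase C, MAP kinase and Akt members), 15 were tested in chronic hypoxia against standard oxygen and 0 were called by limma, with an unadjusted p under 0.05 for 2 of them, where 22.9% of all genes were under it. Under the replicate block by code, which called 18.4% of all genes, 2 of the 15 were called, both higher: Tec, a kinase downstream of Syk, at a log2 difference of 0.77, and Pik3cg, a phosphoinositide 3-kinase catalytic subunit, at 0.44. Of 30 adaptors and effectors, 27 were tested and 0 were called by limma, 5 of them at an unadjusted p under 0.05. With the block 5 were called higher and 1 lower, beside the same 18.4% of all genes. Their log2 differences ran from -0.37 for Pik3ap1, an adaptor for phosphoinositide 3-kinase, to 0.60 for Lat2, a membrane adaptor, both called with the block (limma, adjusted p = 0.0292 and 0.0253). The median log2 difference was 0.09 for the kinases and 0.15 for the adaptors and effectors, beside 0.16 for all genes tested.

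Among 27 other inhibitory receptors and phosphatases, all tested, 1 was called higher by limma in chronic hypoxia against standard oxygen. In that fit 2.69% of all genes were called. An unadjusted p under 0.05 was found for 6 of the 27, where 22.9% of all genes were under it. The called gene was Pecam1, an adhesion receptor with inhibitory motifs, at 10.8 to 21.9 TPM in standard oxygen and 39.2 to 42.7 in chronic hypoxia (log2 difference 1.45 ± 0.247; limma, adjusted p = 0.0406). When 1 library was left out the Pecam1 call held only without standard replicate 2 (limma, adjusted p = 0.00451), and it was lost without standard replicate 1 (0.169) or 3 (0.166) and without chronic replicate 1 (0.132), 2 (0.179) or 3 (0.0580). With the code as a replicate block 8 of the 27 were called, all higher, Pecam1 among them, where 18.4% of all genes were called, 1674 of them higher and 365 lower. The list's median log2 difference was 0.15.

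Of the other receptors that signal through Fcer1g, Tyrobp or Syk, 19 were tested. Limma called 1 higher and 1 lower in chronic hypoxia against standard oxygen, where 2.69% of all genes were called. An unadjusted p under 0.05 was found for 7 of the 19, where 22.9% of all genes were under it. Pira2, an activating paired immunoglobulin-like receptor, was at 23.2 to 30.9 TPM in standard oxygen and 50.8 to 80.6 in chronic hypoxia (log2 difference 1.23 ± 0.197; limma, adjusted p = 0.0366). It belongs to a family of near-identical genes, so its value is uncertain. Clec4d, a C-type lectin that pairs with Fcer1g, was at 1843 to 2251 TPM in standard oxygen and 1018 to 1350 in chronic hypoxia (log2 difference -0.80 ± 0.151; limma, adjusted p = 0.0498). Both calls were lost after median-of-ratios rescaling (limma, adjusted p = 0.0905 for Pira2 and 0.0677 for Clec4d). They held with 1 library left out only without standard replicate 2 or chronic replicate 3. They were lost without standard replicate 1 (limma, adjusted p = 0.154 for Pira2 and 0.211 for Clec4d) or 3 (0.150 and 0.200), and without chronic replicate 1 (0.119 and 0.123) or 2 (0.166 and 0.187). The extremes of the list were Trem1 (log2 difference 1.79, adjusted p = 0.0638 by limma) and Treml4 (-1.77, 0.145), which did not pass the test without a block and passed it with the code as a replicate block (0.0228 and 0.0177). With that block 3 of the 19 were called higher and 2 lower, beside 18.4% of all genes. The list's median was 0.21. Of a list of 15 other immunoglobulin Fc receptors and related genes, 4 were tested and 0 were called by limma, with or without the block. Of the 4, 0 had an unadjusted p under 0.05. Without the libraries of code C, where 21.1% of all genes were called, some of these were called higher. These were Fcrls (log2 difference 2.51; limma, adjusted p = 0.00283), Fcgrt (0.69; 0.0231) and B2m (0.51; 0.0454), which is not itself an Fc receptor. With all libraries their log2 differences were 1.47 ± 1.31 (limma, adjusted p = 0.545), 0.30 ± 0.454 (0.727) and 0.27 ± 0.224 (0.510). The lowest chronic libraries of Fcrls (0.466 TPM) and Fcgrt (38.9) lay below every standard oxygen library (1.23 to 6.32 and 53.7 to 76.2 TPM).

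In chronic against acute hypoxia the highest and lowest log2 differences among the lists were 1.93 for Fcrls, an Fc receptor-like protein (SE 1.32; limma, adjusted p = 0.450), and -2.19 for Treml4 (0.0862). Fcrls differed by 2.67 and 3.18 within codes A and B and by -0.06 within code C, and without code C its log2 difference was 2.93 (limma, adjusted p = 0.00309). Pira2 (1.22; limma, adjusted p = 0.0508) and Pecam1 (1.14; 0.0616) lay just outside the threshold. With the code as a replicate block Treml4 (limma, adjusted p = 0.00773), Pira2 (0.00773) and Pecam1 (0.0189) were called. Here 0 genes of the 5 lists were called by limma, with 2, 3, 6, 6 and 0 at an unadjusted p under 0.05 in the order above, where 20.8% of all genes were under it. With the code as a replicate block, which called 15.5% of all genes, the calls were 1 kinase (higher), 3 adaptors and effectors (all higher), 6 inhibitory receptors and phosphatases (5 higher, 1 lower), 6 of the receptors that signal through Fcer1g, Tyrobp or Syk (4 higher, 2 lower) and 0 other Fc receptors. In acute hypoxia against standard oxygen 0 genes of the lists were called by limma, with 1, 4, 4, 1 and 0 at an unadjusted p under 0.05 (7.14% of all genes). With the block, which called 0.71% of all genes, 1 was called, the inhibitory receptor Cd300lf. It was at 69.8 to 131 TPM in standard oxygen and 125 to 232 in acute hypoxia (log2 difference 0.83), and those ranges overlapped. The highest log2 difference there was 1.41 for Trem1, an amplifier of inflammatory signalling (limma, adjusted p = 0.371), and without code C it was 1.86 and passed the test (0.00432).

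**Figure D4:**
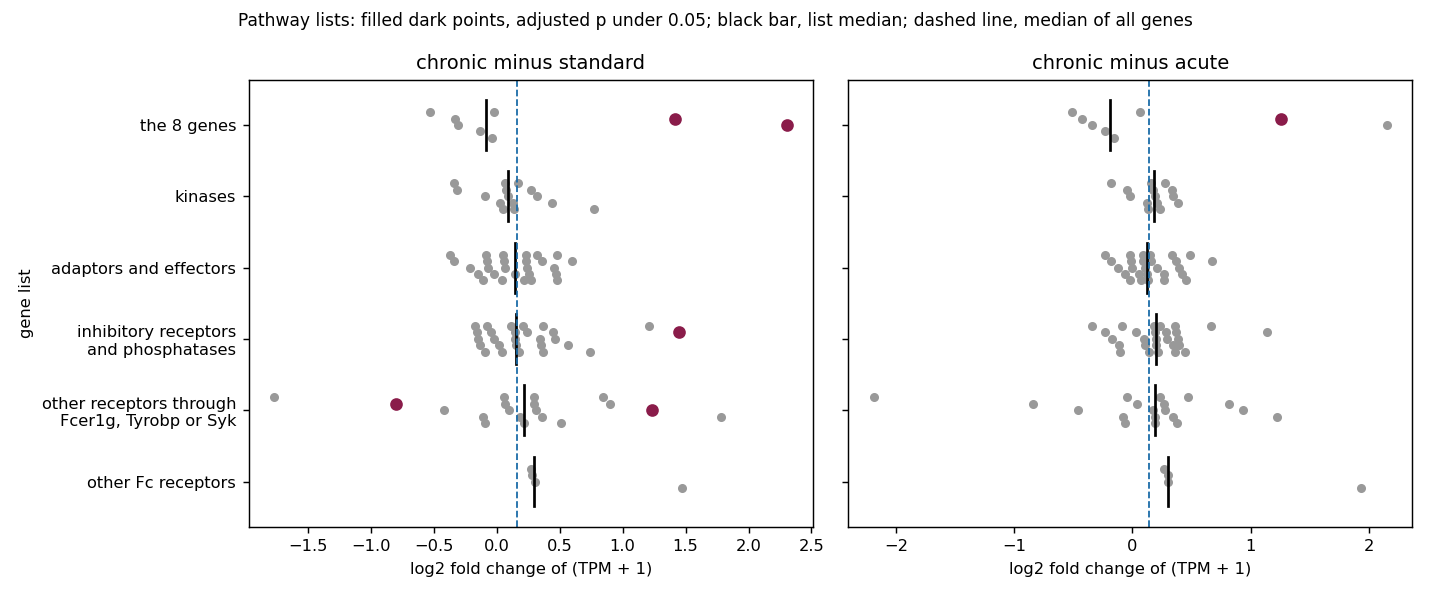
Log2 differences on the log2(TPM + 1) scale of the 8 genes and of 5 pathway lists in chronic hypoxia against standard oxygen (left) and against acute hypoxia (right). Each point is a gene, dark where limma without a block called it, black bars are list medians and the dashed lines the medians of all genes tested (0.16 and 0.14). The dark points are Fcgr2b, Fcgr3, Pecam1, Pira2 and Clec4d on the left and Fcgr3 on the right.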

How the data were processed

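Per the labels' protocols, total RNA was extracted with a Qiagen kit, Illumina TruSeq mRNA libraries were made and paired ends of 75 bases were sequenced. Per the submitters' processing notes, FastQC, STAR and featureCounts were used with GRCm38. Versions, annotation and the step that gave TPM are not given in the sources used here. The authors deposited TPM per gene in 3 tables, 1 per pair of groups. The 9 libraries had identical values wherever repeated, and each library summed to 1000000. TPM keeps no depth, so no counting error could be given. Each library had 10724 to 11208 genes at 1 TPM or more.

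Each comparison used the 6 libraries of its groups: limma 3.58.1 in R 4.3.3 on log2(TPM + 1) with an intensity trend (two-sided), genes with a mean of at least 1 TPM, Benjamini-Hochberg adjustment over all of them, called at an adjusted p under 0.05. Fold changes on that scale understate changes of low genes. The fits without a block were run on simulated data with independent libraries. Those data lack the correlation by code described next, so they cannot show how the fits behave with it. Deviations from group means correlated between libraries of the same code at 0.37 to 0.63 in all 9 pairs, so the code was taken to pair the libraries, and code-blocked values are printed where they change a call of the 8 genes or of a list gene named with its own test. Alternatives were other pseudocounts, filters, scalings, fits of all 9 libraries, blocks and left-out libraries. Leaving out code C, and the alternatives for named list genes, were chosen after seeing the data. The 8 genes and all lists were chosen with earlier results of these data known. Named list genes were the highest and lowest of each list and those called. For each of the 8, the 3 most correlated genes were found. Sdhc, Pik3cg and the marker genes given with values were chosen after their values were seen.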

Additional observations from a re-analysis of the deposited data

How the results depend on the processing

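The directions of Fcgr2b, Fcgr3 and Syk in both chronic hypoxia comparisons held under every alternative run, and the number of the 8 genes called depended on the settings. Over the values of the 8 genes in 3 comparisons, leaving out 1 library kept direction and side of the threshold in 109 of the values, lost the call in 13 and turned the sign in 22. The other settings kept them in 279, gained a call in 19, lost one in 8 and turned the sign in 6. In chronic hypoxia against standard oxygen, 1 of the 8 genes was called with no filter on low values, 0 with the title number as a replicate block, and 0 to 2 with 1 library left out. In chronic against acute hypoxia, 0 were called with a pseudocount of 5, no filter, no trend, median-of-ratios rescaling or quantile normalization, 2 with all 9 libraries in 1 fit, 3 with either replicate block or with the code block in a fit of all 9, 4 with the code block and rescaling, 4 without code C, and 0 to 1 with 1 library left out. In acute hypoxia against standard oxygen 1 was called without code C.

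Over all genes, 3 were called in acute hypoxia against standard oxygen, and 5 without trend, 21 with rescaling, 23 with quantile normalization, 25 with all 9 libraries, 0 with the title number as a replicate block, 78 with the code block, 57 with the code block and rescaling, 204 with the code block and all 9, 319 without code C, and 0 to 33 with 1 library left out. In chronic hypoxia against standard oxygen 298 were called, and 120 with no filter, 166 without trend, 764 with all 9, 1 with the title block, 2039 with the code block, 1276 with the code block and rescaling, 2909 with the code block and all 9, 2300 without code C, and 1 to 522 with 1 library left out. In chronic against acute hypoxia 77 were called, and 7 with no filter, 25 without trend, 415 with all 9, 1724 with either replicate block (title and code pair these libraries alike), 1085 with the code block and rescaling, 2450 with the code block and all 9, 1788 without code C, and 1 to 308 with 1 library left out. Deviations paired by title number correlated at -0.51 to 0.39 in the comparisons with standard oxygen. The cause of these differences was not tested.

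Signs turned only for values that were not called, and in acute hypoxia against standard oxygen most did. Without code C, Fcgr2b there was -0.11, and in chronic hypoxia against standard oxygen Fcer1g was 0.17 and Lyn 0.12. Quantile normalization gave Inpp5d in acute hypoxia -0.0077. Fcer1g in chronic against acute hypoxia was -0.093 after rescaling, with or without the code block. With 1 library left out, some log2 differences took both signs. In acute hypoxia against standard oxygen, Fcgr1 ranged from -0.099 (also -0.077) to 0.44, Fcgr2b from -0.31 to 0.43, Fcgr4 from -0.35 (also -0.24 and -0.14) to 0.48, Fcer1g from -0.22 to 0.12 (also 0.032), Syk from -0.19 to 0.10 (also 0.083 and 0.047) and Inpp5d from -0.039 (also -0.038 and -0.01) to 0.14. In chronic hypoxia against standard oxygen, Fcgr1 ranged from -0.52 to 0.018, Fcgr4 from -0.58 to 0.14, Fcer1g from -0.16 to 0.18 (also 0.033) and Lyn from -0.12 to 0.11. Against acute hypoxia, Fcgr4 ranged from -0.59 to 0.040 and Fcer1g from -0.052 to 0.20. Among the 3 list genes called in chronic hypoxia against standard oxygen, Pecam1 stayed called in 11 of 19 alternatives, Pira2 in 10 and Clec4d in 9, with no change of sign. With 3 libraries per group and unknown depth, small differences of any of the 8 genes were not detectable.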
